A study of Mus musculus with 2 samples.

Results

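The genes described here are 10 genes of the circadian clock and its output, Arntl, Nr1d1, Nr1d2, Per1, Cry1, Dbp, Tef, Hlf, Nfil3 and Usp2, out of 17238 genes in the deposited count table. They were chosen by name as known clock genes and not by a rule on their levels, although earlier results of these data were known. They were followed in cells grouped by a surface or lineage marker. The study profiled single innate lymphoid cells (ILCs) of the mouse gut by droplet RNA sequencing with the 10x Chromium 3′ version 2 kit. There were 2 libraries, a small intestine library and a colon library. Each was made from cells sorted as IL7ra+ ILCs from a pool of 8 C57BL/6 mice aged 8 weeks, and both libraries are titled as fed. No genotype, drug or other treatment is named, and the labels give no time of day for either collection. If the times differed, tissue and time of day cannot be told apart. There were no replicates, so no test was possible, and every interval below is a 95% interval that reflects the number of UMIs counted and neither mouse-to-mouse nor library-to-library variation.

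The mammalian clock is a transcriptional loop. BMAL1, the product of Arntl, pairs with CLOCK and binds E-box sequences, where it activates the Per, Cry and Nr1d genes as well as Dbp, Tef and Hlf. PER and CRY proteins then repress BMAL1 and CLOCK, while the REV-ERB receptors encoded by Nr1d1 and Nr1d2 repress Arntl, Nfil3 and Cry1 at DNA elements known as ROREs. NFIL3 represses the D-box sites that DBP, TEF and HLF activate. In the gut, loss of Arntl or Nr1d1 is known to disturb group 3 ILCs (ILC3s), and Nfil3 is needed for the development of ILCs.

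The table held 5490 cells of the small intestine and 7549 of the colon, with 15080081 and 22332691 unique molecular identifiers (UMIs, 1 per captured RNA molecule). The median was 2579 UMIs per small intestine cell and 2600 per colon cell. The 2 libraries shared 60 cell barcodes, against 56.2 expected by chance. Cells with at least 1 UMI of Ccr6, a receptor of lymphoid tissue inducer-like ILC3s, numbered 541 in the small intestine library and 357 in the colon library. Those with Ncr1, the NKp46 receptor, numbered 1605 and 665, and those with Gata3, the transcription factor that defines ILC2s, numbered 1643 and 4218. Klrd1, the CD94 chain of NK cell receptors, marked 172 and 482 cells, and Cd3e, a chain of the T cell receptor complex, marked 429 and 1384. A further 1882 and 1615 cells had none of the 5 markers. The groups overlap, since 13.2% of small intestine cells and 13.5% of colon cells had at least 2 of the markers.

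The groups were checked against lists of cell type genes, leaving out of each list the 5 markers that define the groups. Summed over 8 ILC3 genes, Ccr6+ cells had 11908 CPM (UMIs of a gene per 1000000 UMIs of the cells) in the small intestine library and 10621 CPM in the colon library, the highest of the 5 groups in each library. A list of 11 ILC2 genes was highest in Gata3+ cells, at 2621 and 2648 CPM. A list of 11 T cell genes was highest in Cd3e+ cells, at 6938 and 5549 CPM, although the sort was for ILCs. A list of 10 ILC1 and NK cell genes was highest in Klrd1+ cells, at 6821 and 4256 CPM, but Eomes, a defining NK cell factor, had 2 and 10 UMIs there, and 29.1% and 19.5% of these cells also had Cd3e. The Gata3+ cells were mixed, with ILC3 sums of 4848 CPM in those of the small intestine and 2680 CPM in those of the colon. A list of 8 B and plasma cell genes summed to 7252 CPM over all small intestine cells and 2478 CPM over all colon cells. Cells with more than 10 UMIs of Igkc, Igha and Jchain numbered 13 in the small intestine library and 10 in the colon library.

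The promoters of the genes that differed most are shown first, as the window from 250 bases before to 50 after a RefSeq start site on GRCm38.p6 (mm10), 5′ to 3′ on the strand of the gene. Capitals mark a clock motif, here the E-box CACGTG or the RORE core AGGTCA on either strand, and in Hlf the cAMP response element (CRE) TGACGTCA. The windows are Per1 at chr11:69098699-69098998 (plus strand), Nr1d1 at chr11:98775328-98775627 (minus strand), Hlf at chr11:90390868-90391167 (minus strand) and Usp2 at chr9:44084670-44084969 (plus strand). Arntl at chr7:113207261-113207560 (plus strand) is shown as the gene that the REV-ERB receptors repress.
Per1: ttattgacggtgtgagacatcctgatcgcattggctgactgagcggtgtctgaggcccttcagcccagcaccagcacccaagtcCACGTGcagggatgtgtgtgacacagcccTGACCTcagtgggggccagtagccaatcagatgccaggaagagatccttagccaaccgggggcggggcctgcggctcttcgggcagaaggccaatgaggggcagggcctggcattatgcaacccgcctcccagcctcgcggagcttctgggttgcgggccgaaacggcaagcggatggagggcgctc
Nr1d1: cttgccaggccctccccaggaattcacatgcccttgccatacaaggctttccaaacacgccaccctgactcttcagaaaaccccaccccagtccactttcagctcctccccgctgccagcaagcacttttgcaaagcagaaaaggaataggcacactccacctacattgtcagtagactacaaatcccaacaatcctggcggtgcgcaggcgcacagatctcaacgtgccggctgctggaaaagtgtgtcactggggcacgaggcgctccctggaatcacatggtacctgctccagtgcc
Hlf: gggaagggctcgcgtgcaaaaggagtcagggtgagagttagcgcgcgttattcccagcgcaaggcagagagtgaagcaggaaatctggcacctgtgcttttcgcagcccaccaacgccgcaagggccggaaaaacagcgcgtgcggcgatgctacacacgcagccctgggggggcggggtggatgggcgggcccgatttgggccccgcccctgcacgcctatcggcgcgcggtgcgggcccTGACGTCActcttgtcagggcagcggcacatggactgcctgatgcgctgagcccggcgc
Usp2: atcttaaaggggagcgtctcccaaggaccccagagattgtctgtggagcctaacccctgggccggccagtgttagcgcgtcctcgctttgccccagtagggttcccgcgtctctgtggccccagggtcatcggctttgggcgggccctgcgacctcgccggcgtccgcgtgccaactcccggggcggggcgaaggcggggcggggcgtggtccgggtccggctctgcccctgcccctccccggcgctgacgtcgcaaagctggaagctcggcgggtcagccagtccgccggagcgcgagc
Arntl: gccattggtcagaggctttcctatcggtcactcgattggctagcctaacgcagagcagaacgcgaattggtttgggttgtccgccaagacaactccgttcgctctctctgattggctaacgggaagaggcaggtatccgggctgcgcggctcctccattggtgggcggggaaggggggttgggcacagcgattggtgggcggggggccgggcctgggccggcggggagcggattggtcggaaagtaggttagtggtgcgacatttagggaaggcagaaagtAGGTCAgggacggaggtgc

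In the Per1 window the E-box starts at base 85 and the RORE core, on the other strand, at base 114. The RORE core of the Arntl window starts at base 282, after the start site, and the CRE of Hlf at base 242. All 10 genes had a window in the RefSeq table, 13 windows in all. The E-box was in 4 of them, from Per1, Cry1 and Tef (both Tef windows), and in 7.15% of the 32851 mouse windows of the same length. The RORE core was in 4, from Arntl, Nfil3, Nr1d2 and Per1, against 16.3% of all windows. The D-box TTANGTAA was in 0 of the 13 and in 2.32% of all windows, and the CRE was in 1 and in 1.79%. The windows of Nr1d1, Dbp and Usp2 hold none of the 4 motifs, which says only that these letters are not in these bases. Per1 and Arntl each have another window, at chr11:69099902-69100201 and chr7:113207215-113207514. These other windows are not shown, and they also hold none of the 4 motifs.

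Between the tissues, the members differed in direction. Over all cells, Per1 was higher in the small intestine, Hlf and Usp2 were higher in the colon, and Arntl differed by less than its counting error. Of the 10 members, 1 (Per1) had at least 2-fold more in small intestine cells, as did 8.92% of all 11962 genes with at least 20 UMIs, and 2 (Hlf and Usp2) had at least 2-fold more in colon cells, as did 5.42% of genes. The median log2 ratio, small intestine over colon, was 0.26 over the members and 0.20 over all genes. The ratios below are not shifted for that median. These all-cell values mix groups of unequal size, since Gata3+ cells were 29.9% of the small intestine cells and 55.9% of the colon cells.

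**Figure D1:**
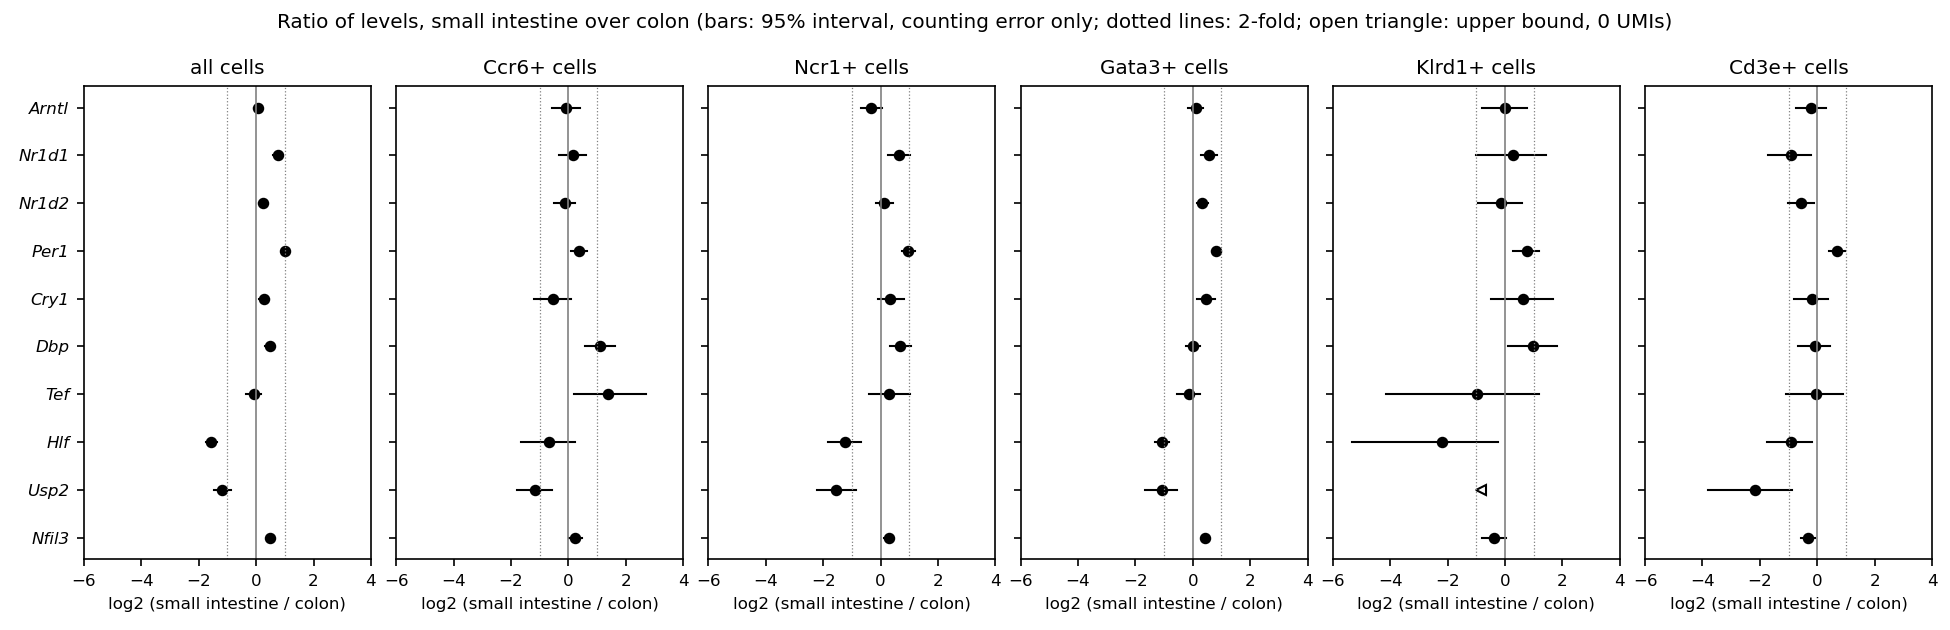
Log2 ratio of the level of each clock gene in the small intestine over the colon, for all cells and for each marker-positive group. Points are ratios of CPM values, bars are 95% intervals of the counts, dotted lines mark 2-fold, and the open triangle marks an upper bound where the small intestine had 0 UMIs of Usp2. Hlf and Usp2 lie left of 0 in every panel, and Per1 lies right of 0 in every panel.

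Arntl, the core activator, was close in the tissues. It had 583 UMIs in small intestine cells and 825 in colon cells, or 38.7 and 36.9 CPM, a ratio of 1.05 (interval 0.940 to 1.17). Over the 5 groups it ranged between 35.1 CPM in Gata3+ and 47.4 CPM in Ccr6+ cells of the small intestine, and between 32.6 CPM in Gata3+ and 49.6 CPM in Ccr6+ cells of the colon. Ordered by level, none of its 9 pairs of neighbouring groups had separate intervals. In the colon, Gata3+ cells had less Arntl than Gata3-negative cells, 32.6 against 43.7 CPM (ratio 0.746, interval 0.649 to 0.857).

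Per1, an immediate repressor of the loop whose transcription also answers cAMP, stress and glucocorticoid signals, was higher in the small intestine in every group. It stood at 164 CPM in Ccr6+, 174 in Ncr1+, 137 in Gata3+, 136 in Klrd1+ and 134 in Cd3e+ cells of the small intestine. In the colon it stood at 127 CPM in Ccr6+, 89.7 in Ncr1+, 79.0 in Gata3+, 80.9 in Klrd1+ and 83.5 in Cd3e+ cells. All 5 small intestine groups lay above all 5 colon groups, and the break in the order between Cd3e+ cells of the small intestine at 134 CPM and Ccr6+ cells of the colon at 127 CPM was within counting error. Ccr6+ cells were in turn apart from the other 4 colon groups. The ratio was 1.94 in Ncr1+ cells (interval 1.66 to 2.28), 1.73 in Gata3+ cells (1.57 to 1.91), 1.68 in Klrd1+ cells (1.23 to 2.29) and 1.61 in Cd3e+ cells (1.32 to 1.94). It was smallest in Ccr6+ cells, at 1.29 (1.06 to 1.56). Over all cells Per1 was at 163 CPM in small intestine cells, against 81.0 CPM in colon cells, a ratio of 2.01 (1.89 to 2.14), and its log2 ratio of 1.01 became 0.80 with the libraries scaled by the median ratio of all genes.

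Other measures were read beside Per1. The 16 immediate early and heat shock genes on a list of handling-sensitive genes, all 16 of them detected, summed to 20065 CPM over small intestine cells and 14325 CPM over colon cells. Over the 5 groups the sum ran between 14327 and 25739 CPM in the small intestine, and between 12454 and 17576 CPM in colon cells, and it was higher in the small intestine in each group. Single genes of the list were divided: over all cells 9 were higher and 7 lower in the small intestine. Their median log2 ratio was 0.06, beside 0.20 over all genes. Without the 10% of cells highest in these genes, the log2 ratio of Per1 over all cells was 1.01, against 1.01 with them. A list of 12 glucocorticoid-responsive genes summed to 4565 CPM over small intestine cells and 4140 CPM over colon cells. By group its sum was higher in the small intestine in Ccr6+, Ncr1+ and Klrd1+ cells. It was slightly lower there in Gata3+ cells (4331 against 4399 CPM) and Cd3e+ cells (3736 against 3814 CPM). The part of these genes in the Per1 result was not tested. Free RNA, read from barcodes with 10 to 50 UMIs, held 221 CPM of Per1 in the small intestine library and 131 CPM in the colon library, above the level in each of the groups of the same library. In the colon the gap to Ccr6+ cells, at 127 CPM, was within counting error. Free RNA was estimated at 5.36% of the UMIs of small intestine cells and 8.25% of those of colon cells, and with it subtracted the log2 ratio of Per1 was 1.06.

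Hlf, which encodes a D-box activator, was higher in the colon and, within each library, in Gata3+ cells. Levels in the small intestine were 32.8 CPM in Gata3+, 14.6 in Cd3e+, 11.5 in Ccr6+, 10.8 in Ncr1+ and 4.26 in Klrd1+ cells. Colon levels were 68.7 CPM in Gata3+, 27.7 in Cd3e+, 25.6 in Ncr1+, 19.7 in Klrd1+ and 18.4 in Ccr6+ cells. Gata3+ cells were thus the highest group of each library, and Gata3+ cells of the colon stood apart from all other groups. Only 2 UMIs were behind the lowest value, in Klrd1+ cells of the small intestine. Within the small intestine, Gata3+ cells had 3.18-fold more Hlf than Gata3-negative cells (32.8 against 10.3 CPM, interval 2.48 to 4.11). Within the colon the ratio was 2.43 (68.7 against 28.2 CPM, 2.11 to 2.81), and it was under 2 with groups set after thinning every cell to 1000 UMIs. It was also under 2 when cells with Gata3 as their only marker, at 77.0 CPM, were set against colon cells with none of the 5 markers, at 43.6 CPM in place of 28.2 CPM.

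Hlf also followed the number of Gata3 UMIs in a cell, as the plot of levels by marker UMIs shows. Small intestine cells had 10.3 CPM with 0 Gata3 UMIs, 20.6 with 1, 30.4 with 2 and 49.9 with 3 or more. Colon cells had 28.2 CPM with 0, 55.8 with 1, 74.5 with 2 and 75.2 with 3 or more. Cells with more Gata3 UMIs were also deeper, with medians of 3237 UMIs in the small intestine library and 2984 in the colon library at 3 or more Gata3 UMIs, against 2463 and 2402 at 0, although the level is scaled to all UMIs of the same cells. This split, and the one by Il1rl1 below, were chosen after the values had been seen.

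At every number of Gata3 UMIs the colon had more Hlf than the small intestine. Over all cells Hlf was at 17.8 CPM in small intestine cells, against 52.7 CPM in colon cells, 2.96-fold lower in the small intestine (interval 2.59 to 3.39). In Gata3+ cells alone it was 2.10-fold lower (1.78 to 2.49), in Ncr1+ cells 2.38-fold lower (1.60 to 3.54) and in Cd3e+ cells 1.90-fold lower (1.14 to 3.37). In Ccr6+ cells the interval of the ratio, 0.626 (0.318 to 1.18), spans 1. Without the cells with the highest doublet scores the log2 ratio of Hlf in Ncr1+ cells was −0.55, against −1.25. Among cells with at least 2 Gata3 UMIs the log2 ratio of Hlf was −0.80, against −1.07 in all Gata3+ cells. Gata3+ cells of the colon also had more of Il1rl1, the IL-33 receptor of ILC2s, at 26.4 CPM in small intestine cells, against 124 CPM in colon cells, and the part of this in the difference was not tested. Hlf was seen in 3.29% of Gata3+ cells of the small intestine and 6.90% of those of the colon after thinning (9.19% and 17.7% unthinned). No cell type in the table is known to lack Hlf, so no background share stands beside these.

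**Figure D2:**
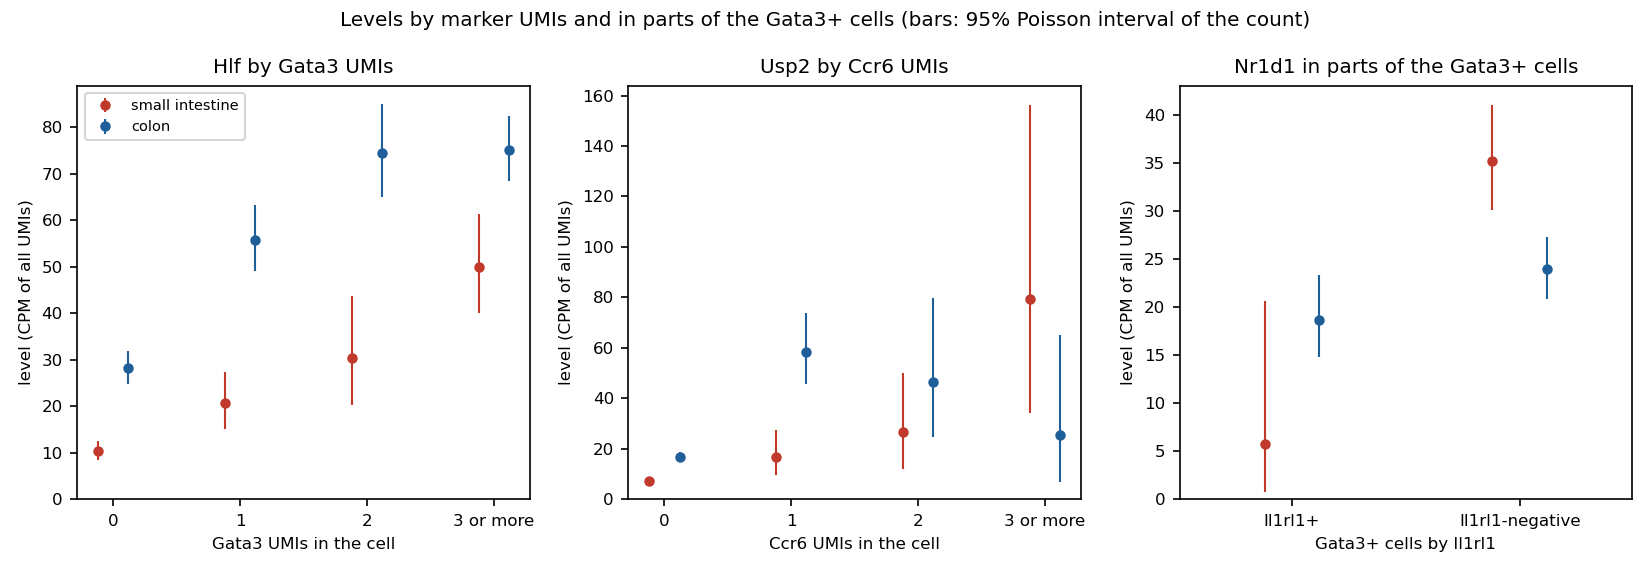
Level in CPM of Hlf in cells with 0, 1, 2 and 3 or more Gata3 UMIs, of Usp2 in cells with the same numbers of Ccr6 UMIs, and of Nr1d1 in Gata3+ cells with and without Il1rl1, in the small intestine and the colon. Points are CPM and bars are 95% Poisson intervals. Hlf is higher at 3 or more Gata3 UMIs than at 0 in each library (49.9 against 10.3 CPM, and 75.2 against 28.2 CPM).

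Usp2, a deubiquitinase under clock control in many tissues, was higher in Ccr6+ cells within each library, and higher in the colon. Its level was 23.7 CPM in Ccr6+, 6.96 in Ncr1+, 6.51 in Gata3+ and 4.29 in Cd3e+ cells of the small intestine, and it had 0 UMIs in Klrd1+ cells there. In the colon it was at 53.3 CPM in Ccr6+, 20.2 in Ncr1+, 19.2 in Cd3e+, 13.8 in Gata3+ and 11.5 in Klrd1+ cells. Ccr6+ cells of the colon stood apart from every other group. Cells with none of the 5 markers had 9.85 CPM of Usp2 in the small intestine library, against 31.6 CPM in the colon library. Ccr6+ cells had 3.38-fold more Usp2 than Ccr6-negative cells in the small intestine (23.7 against 7.01 CPM, interval 2.20 to 5.07) and 3.20-fold more in the colon (53.3 against 16.7 CPM, 2.50 to 4.05). With exclusive groups, which set cells with Ccr6 as their only marker against cells with none of the 5 markers, the colon log2 ratio was 0.96, against 1.68. The level in the Ccr6-only cells was 61.3 CPM, and the smaller ratio came with the higher level of the cells they were set against, 31.6 CPM in place of 16.7 CPM. Ccr6+ cells of the colon had a median of 3443 UMIs, next to 2366 in those of the small intestine, and 13.4% of them also had Cd3e. Without the cells with the highest doublet scores the log2 ratio of Usp2 in Ccr6+ cells, small intestine over colon, was −1.43.

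Each group had less Usp2 in the small intestine than in the colon. Over all cells the level was 8.55 CPM in the small intestine library and 19.3 CPM in the colon library, 2.26-fold lower in the small intestine (interval 1.85 to 2.77). The small intestine was 2.25-fold lower in Ccr6+ cells (1.49 to 3.47), 2.90-fold lower in Ncr1+ cells (1.81 to 4.69), 2.12-fold lower in Gata3+ cells (1.46 to 3.18) and 4.47-fold lower in Cd3e+ cells (1.84 to 14.1). In Klrd1+ cells the small intestine had 0 UMIs, with an upper interval limit of 7.85 CPM, against 11.5 CPM in the colon (6.79 to 18.1). Counting 3 UMIs as the floor in that group, it was 1.79-fold lower. That value is set by the floor and is not a limit of the counting interval. The Ccr6+ contrast rested on cells with 1 Ccr6 UMI: with at least 2 Ccr6 UMIs the log2 ratio of Usp2 was −0.01, against −1.17. In the small intestine Usp2 was at 16.8, 26.4 and 79.3 CPM in cells with 1, 2 and 3 or more Ccr6 UMIs, the last from 8 UMIs in 39 cells. With groups set after thinning each cell to 1000 UMIs, the log2 ratio of Usp2 in Gata3+ cells was −0.62, against −1.09. By number of Ccr6 UMIs, colon cells had 58.5, 46.6 and 25.3 CPM, the last from 4 UMIs in 32 cells.

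**Figure D3:**
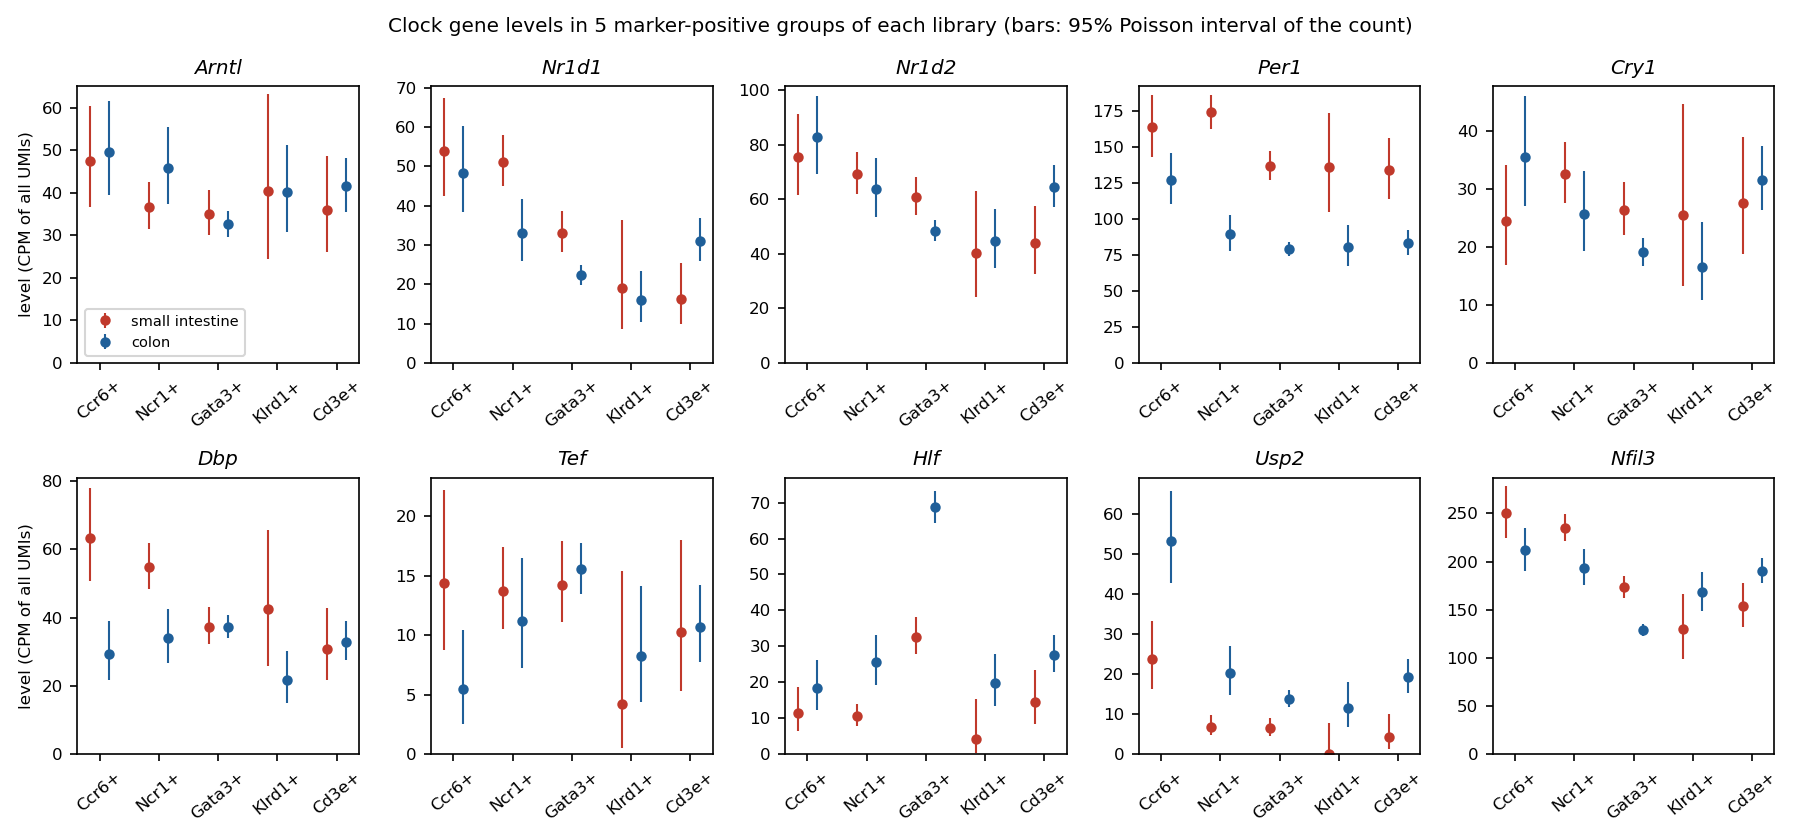
Level of each of the 10 clock genes, in CPM, in Ccr6+, Ncr1+, Gata3+, Klrd1+ and Cd3e+ cells of the small intestine and the colon, with 95% Poisson intervals of the counts. Each panel has its own axis from 0. Per1 is higher in the small intestine in all 5 groups, Hlf peaks in Gata3+ cells at 32.8 and 68.7 CPM, and Usp2 peaks in Ccr6+ cells at 23.7 and 53.3 CPM.

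Nr1d1 encodes REV-ERBα, the repressor of Arntl. It was at 53.9 CPM in Ccr6+, 51.2 in Ncr1+, 33.2 in Gata3+, 19.2 in Klrd1+ and 16.3 in Cd3e+ cells of the small intestine. Colon cells had 48.4 CPM in Ccr6+, 33.2 in Ncr1+, 31.1 in Cd3e+, 22.3 in Gata3+ and 15.9 in Klrd1+ cells. The groups with the highest ILC3 sums, Ccr6+ and Ncr1+, headed the order in each library, and Klrd1+ cells were at or near its foot. In the colon, Ccr6+ cells had 2.10-fold more than Ccr6-negative cells (48.4 against 23.0 CPM, interval 1.64 to 2.67). In the small intestine the same ratio was 1.32 (53.9 against 40.8 CPM, 1.02 to 1.68).

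The tissue difference of Nr1d1 ran in opposite directions in different groups. Over all cells it was at 42.0 CPM in small intestine cells, against 24.9 CPM in colon cells, a ratio of 1.69 (interval 1.51 to 1.90). The ratio was 1.54 in Ncr1+ cells (1.19 to 2.03) and 1.49 in Gata3+ cells (1.22 to 1.80), whereas in Cd3e+ cells it was 0.525 (0.307 to 0.854). In the small intestine, Cd3e+ cells had 2.71-fold less Nr1d1 than Cd3e-negative cells (16.3 against 44.2 CPM, 1.72 to 4.53), and in the colon they had 1.33-fold more (31.1 against 23.4 CPM, 1.08 to 1.62). In Ccr6+ cells the tissues differed by less than counting error (1.11, 0.801 to 1.55). Nr1d1 (chr11:98767932-98775333, minus strand) overlaps Thra on the other strand, and use of strand in the counting is not given in the sources used here. Thra was at 22.7 CPM in small intestine cells, against 21.5 CPM in colon cells.

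Gata3+ cells were then divided by Il1rl1. In the small intestine, Nr1d1 was at 5.70 CPM in the 93 Gata3+ cells with Il1rl1, from 2 UMIs (interval 0.690 to 20.6), against 35.2 CPM in the 1550 without (30.0 to 41.0). In the colon it was at 18.7 CPM in 1146 Gata3+ cells with Il1rl1 (14.7 to 23.3), against 23.9 CPM in 3072 without (20.9 to 27.2). The intervals of the cells with and without Il1rl1 were separate in the small intestine library and overlapped in the colon library. Among Gata3+ cells without Il1rl1, Nr1d1 was higher in the small intestine library than in the colon library. Among those with Il1rl1 it was lower there, on 2 UMIs, and the intervals of the tissues overlapped. Hlf was at 34.2 CPM in Gata3+ Il1rl1+ cells of the small intestine (17.7 to 59.7), against 32.7 CPM in those without Il1rl1 (27.7 to 38.2). In the colon it was at 75.8 CPM with Il1rl1 (67.7 to 84.6), against 65.6 CPM without (60.5 to 71.0), and the intervals overlapped in each library.

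Nr1d2 encodes REV-ERBβ, the related repressor. It ranged between 40.5 CPM in Klrd1+ and 75.4 CPM in Ccr6+ cells of the small intestine, and between 44.6 CPM in Klrd1+ and 82.7 CPM in Ccr6+ cells of the colon. Over all cells the ratio was 1.17 (67.4 CPM in small intestine cells, against 57.4 CPM in colon cells, interval 1.08 to 1.28). Its groups split as those of Nr1d1 did: the ratio was 1.26 in Gata3+ cells (61.0 against 48.4 CPM, 1.10 to 1.44) and 0.679 in Cd3e+ cells (43.8 against 64.5 CPM, 0.493 to 0.919). In Ccr6+, Ncr1+ and Klrd1+ cells the interval spans 1.

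Cry1 encodes a repressor of BMAL1 and CLOCK. It ran between 24.4 CPM in Ccr6+ and 32.5 CPM in Ncr1+ cells of the small intestine, and between 16.6 CPM in Klrd1+ and 35.5 CPM in Ccr6+ cells of the colon. The tissue ratio over all cells was 1.21 (28.2 CPM in small intestine cells, against 23.3 CPM in colon cells, interval 1.06 to 1.38). In the colon, Cry1 was higher in Ccr6+ than in Ccr6-negative cells (35.5 against 22.3 CPM, ratio 1.59, 1.19 to 2.09) and in Cd3e+ than in Cd3e-negative cells (31.5 against 21.4 CPM, 1.48, 1.20 to 1.80). It was lower in Gata3+ than in Gata3-negative cells (19.0 against 29.8 CPM, 0.638, 0.535 to 0.760).

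Dbp and Tef encode the other D-box activators. Dbp was at 63.2 CPM in Ccr6+, 54.8 in Ncr1+, 42.6 in Klrd1+, 37.3 in Gata3+ and 30.9 in Cd3e+ cells of the small intestine. In the colon its levels lay closer together, between 21.6 CPM in Klrd1+ and 37.4 CPM in Gata3+ cells. The tissue difference was in the Ccr6+ cells, 63.2 CPM in small intestine cells, against 29.4 CPM in colon cells (ratio 2.15, interval 1.50 to 3.12), in the Ncr1+ cells (1.61, 1.24 to 2.11) and in the Klrd1+ cells (1.97, 1.07 to 3.52). Gata3+ cells had close levels, 37.3 and 37.4 CPM (0.998, 0.840 to 1.18). Tef had the fewest UMIs of the members over both libraries, with 201 UMIs in small intestine cells and 315 in colon cells, or 13.3 and 14.1 CPM. Its ratio of 2.61 in Ccr6+ cells rests on 20 UMIs in small intestine cells and 9 in colon cells (1.13 to 6.50), and it was turned round, to a log2 ratio of −0.05, when groups were set after thinning.

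Dbp (chr7:45705088-45710203, plus strand) overlaps Sphk2 on the other strand, with the same limit on strand as for Nr1d1. In the colon, Dbp and Tef were higher in Gata3+ than in Gata3-negative cells, with ratios of 1.27 (37.4 against 29.5 CPM, interval 1.09 to 1.48) and 1.31 (15.5 against 11.9 CPM, 1.03 to 1.67). In the small intestine Dbp was instead lower in Gata3+ cells (0.711, 0.599 to 0.841).

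Nfil3, the D-box repressor, was found with 3223 UMIs in small intestine cells and 3438 in colon cells. It was at 250.6 CPM in Ccr6+, 235 in Ncr1+, 173 in Gata3+, 154 in Cd3e+ and 129.9 in Klrd1+ cells of the small intestine. In the colon it was at 212 CPM in Ccr6+, 194 in Ncr1+, 190.4 in Cd3e+, 168 in Klrd1+ and 129 in Gata3+ cells. Ccr6+ and Ncr1+ cells headed the order in each library. The tissue ratio was 1.34 in Gata3+ cells (interval 1.24 to 1.46), 1.22 in Ncr1+ cells (1.09 to 1.36) and 1.18 in Ccr6+ cells (1.02 to 1.38), and it was 0.808 in Cd3e+ cells (0.683 to 0.951). In Klrd1+ cells it was 0.773, with an interval that spans 1 (0.575 to 1.02). Gata3+ cells had less Nfil3 than Gata3-negative cells in the small intestine (173 against 234 CPM, 0.741, 0.685 to 0.801) and in the colon (129 against 192 CPM, 0.673, 0.629 to 0.719).

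Members at least 2-fold apart between the tissues were also counted within each group. In Ccr6+ cells 2 members (Dbp and Tef) had at least 2-fold more in small intestine cells, as did 7.47% of genes, and 1 (Usp2) in colon cells, as did 3.41%. In Ncr1+ cells the counts were 0, against 9.26% of genes, and 2 (Hlf and Usp2), against 4.13%. In Gata3+ cells they were 0, against 7.42%, and 2 (Hlf and Usp2), against 4.40%. Klrd1+ cells had 8 members with at least 20 UMIs over both tissues, of which 0 were higher in the small intestine, against 7.18% of genes, and 1 (Hlf) in the colon, against 4.88%. That Hlf ratio rests on 2 UMIs in the small intestine. Its log2 value of −2.21 stayed 2-fold under 7 of 10 alternatives and ran between −2.37 and −0.02 over them. In Cd3e+ cells 0 were higher in the small intestine, against 5.12%, and 1 (Usp2) in the colon, against 4.27%. There 9 of 10 members were lower in the small intestine, Per1 being the exception, and the median log2 ratio was −0.26 over the members and 0.15 over all genes.

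The same count was made for each marker within a library. For Ccr6+ over Ccr6-negative cells, 1 member (Usp2) was at least 2-fold apart in the small intestine, where 12.2% of genes were, and 4 (Nr1d1 and Usp2 higher, Tef and Hlf lower) in the colon, where 14.7% were. For Ncr1 the counts were 0, with 7.58% of genes, and 1 (Hlf, lower), with 10.8%. For Gata3 they were 1 (Hlf, higher), with 6.59%, and 2 (Hlf higher, Usp2 lower), with 9.29%. For Klrd1 they were 3 (Nr1d1, Tef and Hlf, lower), with 19.0%, and 1 (Hlf, lower), with 11.5%. The 3 in the small intestine rest on 9, 2 and 2 UMIs in Klrd1+ cells, and with exclusive groups Nr1d1 was under 2-fold (log2 −0.33) and Tef and Hlf changed sign (1.07 and 0.30). For Cd3e they were 2 (Nr1d1 and Usp2, lower), with 13.3%, and 1 (Hlf, lower), with 9.49%. Hlf was thus the member counted most often, higher in Gata3+ cells of each library and lower in the other 4 groups of the colon. These colon counts are not separate results. Gata3+ cells were 55.9% of the colon cells, so they weigh on the marker-negative cells of the other 4 markers.

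**Figure D4:**
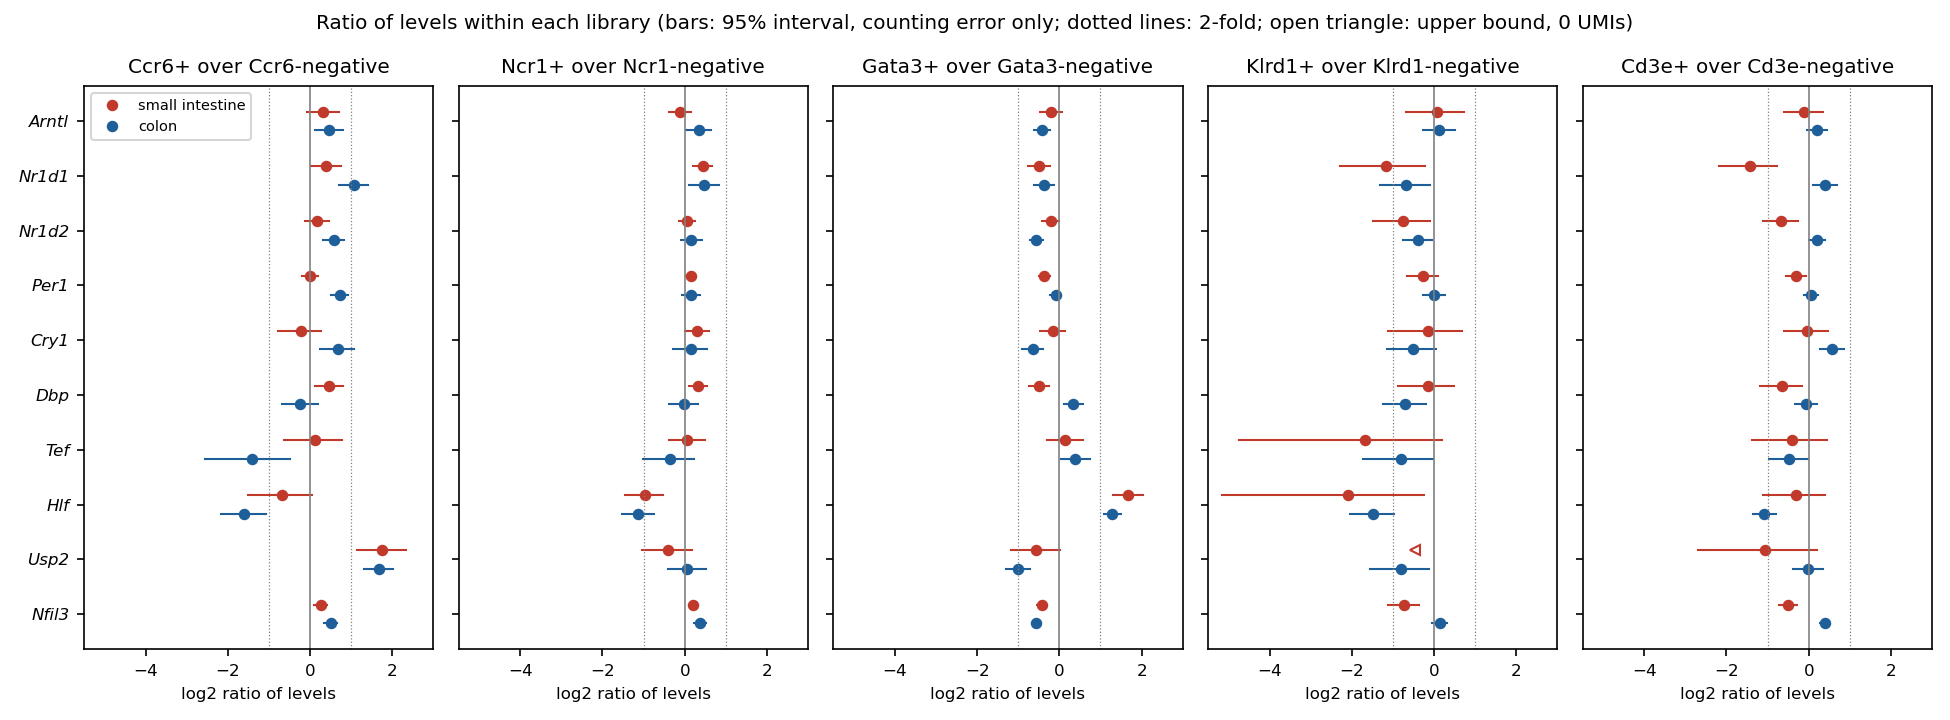
Log2 ratio of the level of each clock gene in marker-positive over marker-negative cells of the same library, for 5 markers, in the small intestine and the colon. Bars are 95% intervals of the counts, dotted lines mark 2-fold, and the open triangle marks an upper bound. Hlf lies right of 0 for Gata3 and left of 0 for the other 4 markers, and Usp2 lies right of 2-fold for Ccr6 in each library.

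Median ratios summarise the direction of the members as a list. In Ccr6+ over Ccr6-negative cells the median log2 ratio of the members was 0.22 in the small intestine library and 0.54 in the colon library, beside 0.08 and 0.09 over all genes. In Gata3+ over Gata3-negative cells it was −0.29 and −0.40, beside −0.12 and −0.05. In Klrd1+ over Klrd1-negative cells it was −0.60 in each library, beside 0.02 and −0.01, with Usp2 of the small intestine taken at its bound. The value of the small intestine turned to 0.125 with exclusive groups, and that of the colon reached −1.04 with at least 2 Klrd1 UMIs and −0.94 after thinning. In Cd3e+ over Cd3e-negative cells the medians had opposite signs, −0.45 in the small intestine library and 0.13 in the colon library, beside −0.07 and −0.02. The middle range here leaves out the lowest and the highest member. In the small intestine it lay below 0 for Klrd1 (−1.68 to −0.15) and Cd3e (−1.05 to −0.11). In the colon it spanned 0 for both (−0.81 to 0.13 and −0.48 to 0.41). It also spanned 0 in each library for Ccr6 (−0.23 to 0.47 and −1.42 to 1.07) and Gata3 (−0.49 to 0.14 and −0.65 to 0.38). Where it spans 0, the median sets no common direction of the members.

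Balance within the loop was read as UMIs per Arntl UMI, which needs no scaling between libraries. Per1 was at 4.22 per Arntl UMI in small intestine cells (interval 3.85 to 4.62) and 2.19 in colon cells (2.02 to 2.39). Nr1d1 was at 1.09 (0.970 to 1.22) and 0.673 (0.603 to 0.750). Dbp was at 1.22 (1.10 to 1.37) and 0.927 (0.839 to 1.02), and for Nr1d2 the values were 1.74 (1.57 to 1.93) and 1.56 (1.42 to 1.70). Over all cells Per1, Nr1d1 and Dbp thus stood higher relative to Arntl in the small intestine, with separate intervals, while the intervals of Nr1d2 overlapped. Within groups Nr1d1 per Arntl UMI was not always higher there. In Cd3e+ cells it was lower, at 0.452 in the small intestine library (0.248 to 0.795), against 0.749 in the colon library (0.592 to 0.944). In Klrd1+ cells it was slightly higher, at 0.474 (0.189 to 1.10), against 0.397 (0.239 to 0.640). The intervals of the tissues overlap in both groups. For Dbp in Gata3+ cells the values were 1.06 (0.861 to 1.31) in the small intestine library, against 1.15 (1.01 to 1.31) in the colon library.

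Of 21 other clock genes compared, 20 were in the table. Over all cells 18 had at least 20 UMIs, of which 2 had at least 2-fold more in small intestine cells, where 8.92% of all genes did, and 1 in colon cells, where 5.42% did. Csnk1e, a kinase of PER proteins, was at 26.8 CPM in small intestine cells, against 13.3 CPM in colon cells (2.01, 1.72 to 2.34), and Npas2, a relative of Clock, at 7.23 and 3.36 CPM (2.15, 1.59 to 2.93). Wee1, a cell cycle kinase under clock control, was at 2.45 CPM in small intestine cells, against 7.79 CPM in colon cells (3.18-fold lower in the small intestine, 2.22 to 4.66).

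In single groups, Csnk1e was higher in the small intestine in Gata3+ cells (2.65) and Klrd1+ cells (2.11), and Timeless, a replication and clock factor, in Ncr1+ cells (3.02) and Cd3e+ cells (2.17, interval 0.839 to 5.30). Wee1 was lower in the small intestine in Ncr1+ cells (3.19-fold), Gata3+ cells (3.0-fold) and, with 0 UMIs against 22, Cd3e+ cells. The last ratio was 2.02-fold with the 0 set at the floor of 3 UMIs, which is not a limit of the counting interval. Nampt, an enzyme of NAD synthesis, was 2.45-fold lower in Cd3e+ cells of the small intestine and 2.79-fold lower in Klrd1+ cells (0.862 to 14.3), and Per3 was 2.85-fold lower in Cd3e+ cells (0.890 to 14.6). Clock itself was at 28.0 CPM in small intestine cells, against 24.7 CPM in colon cells. Per2 had 15 UMIs in small intestine cells and 34 in colon cells, too few for any group to be read.

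Fbxl21, which encodes an F-box protein that binds CRY, was higher in Gata3+ cells within each library. Gata3+ cells had 29.8 CPM in the small intestine library, against 34.1 CPM in the colon library, 5.33-fold (interval 3.90 to 7.38) and 3.71-fold (2.93 to 4.76) above Gata3-negative cells. It was lower in Ccr6+ than in Ccr6-negative cells (5.16-fold in the small intestine and 8.47-fold in the colon), in Ncr1+ cells (2.51-fold and 4.52-fold), in Cd3e+ cells (2.80-fold and 2.85-fold) and in Klrd1+ cells, where it had 2 UMIs and 1 UMI (ratios 0.303, interval 0.0365 to 1.11, and 0.0244, interval 0.000618 to 0.137). Like Hlf it was highest in Gata3+ cells, but unlike Hlf its Gata3+ levels were close in the tissues.

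For the rest, counts within a library were as follows. Ccr6+ cells had at least 2-fold more Cry2 in the small intestine (15.1 against 7.23 CPM) and the colon (9.80 against 4.64 CPM), more Wee1 in the small intestine (2.71-fold) and more Npas2 (2.18-fold) and Csnk1e (2.14-fold) and less Per3 (3.30-fold) in the colon. Gata3+ cells of the colon had less Csnk1e (2.06-fold). In the small intestine, Klrd1+ cells had less Rora (2.15-fold) and Nampt (2.67-fold, interval 0.903 to 13). Cd3e+ cells there had less Per3 (3.65-fold), Cry2 (3.26-fold) and Nampt (2.55-fold). Ciart in Klrd1+ cells of the small intestine and Per2 in Klrd1+ and Cd3e+ cells of the colon also passed 2-fold, on 2, 5 and 2 UMIs, with intervals that span 1. Rora, a nuclear receptor needed for ILC2 development, was at 1542 CPM in small intestine cells, against 1545 CPM in colon cells.

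The genes whose pattern was most like each member were ranked by Pearson's r of log2(CPM + 10) over 10 sets of cells with exactly 1 of the 5 markers, among 4459 genes with at least 500 UMIs. These are descriptions over 10 points that share 2 libraries. Hlf was most like Il1rl1 (r = 0.966), Ccr8 (0.958), a chemokine receptor, and Slc7a8 (0.949), an amino acid transporter. Usp2 was most like Cdkn1a (0.955), a cell cycle inhibitor, Nip7 (0.955) and Rassf3 (0.948), and Per1 was most like Chmp2a (0.981), Sri (0.949) and Cmc2 (0.934). Nfil3 was most like Nfatc1 (0.955), a factor of calcium signalling, Hbp1 (0.928) and Phlda1 (0.924). Nr1d1 was most like Tmed3 (0.956), Brms1 (0.949) and 9530034E10Rik (0.942), and Arntl like Ppp6r3 (0.894), Socs3 (0.863) and Nr4a2 (0.863).

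The other likenesses were of the same order. Nr1d2 was most like Rbm18 (0.987), Ube2z (0.976) and Sgpp1 (0.969), Cry1 like Tnfrsf1b (0.887), Rnf138 (0.876) and Fam96a (0.875), Dbp like Slc25a46 (0.938), 1110038F14Rik (0.916) and Copb2 (0.911), and Tef like Nudt5 (0.951), Zgpat (0.921) and Pold4 (0.921). The smallest set, Klrd1 alone in the small intestine, had 31 cells. Without it r was 0.975 for Hlf and Il1rl1, 0.941 for Usp2 and Cdkn1a and 0.980 for Per1 and Chmp2a. For Nr1d2 it was 0.745 with Sgpp1 and 0.793 with Ube2z. For Nr1d1 it was 0.874 with Tmed3, 0.852 with Brms1 and 0.868 with 9530034E10Rik. For Tef it was 0.916 with Nudt5, 0.859 with Zgpat and 0.856 with Pold4.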

How the data were processed

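Raw UMI counts per gene and barcode were deposited by the authors as 1 unfiltered matrix per library and as a table of chosen cells. Per the submitters' processing notes they were made with Cell Ranger 3.0.2 and mm10. How the cells were chosen, and whether counting used strand, is not given in the sources used here. The table held the same counts as the matrices (0 values differed) and was used as deposited. A group is the cells of 1 library with at least 1 UMI of its marker, and marker-negative cells are those of the same library with 0. UMIs were summed per group and divided by all UMIs of its cells (CPM), with exact Poisson intervals for levels, exact conditional binomial intervals for ratios and Clopper-Pearson intervals for shares, at 95%. UMIs in 3′ libraries do not scale with gene length, so levels are compared between cells and not between genes. Genes with 0 UMIs were set at a floor of 3 counts in the group. Shares were read with every cell drawn down to 1000 of its UMIs, and 0 cells had fewer. With 1 library per tissue there is no test and no p-value. No spread between samples exists, and the labels do not say whether the pooled mice were prepared apart.

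All 10 members are named. Other clock genes are named where at least 20 UMIs lay in the sets compared and the ratio was at least 2, and the 3 most alike genes by the rule given with them. One listed gene is not reported here and was left out of the lists and sums. Sums leave out the 5 markers. Members, gene lists and tests were chosen with earlier results of these data known. Doublets were kept in the main values. Scrublet in scanpy 1.11.5 marked 0.128% of small intestine cells and 5.74% of colon cells, so the 241 and 456 cells with the highest scores were left out as an alternative instead. Alternatives were other marker thresholds, exclusive groups, groups after thinning, other scalings, and removal of doublets, free RNA, handling-sensitive cells and antibody-rich cells. A cell filter, at least 1000 UMIs and at most 10% mitochondrial UMIs, was also set but left out no cell. Intervals were tested on simulated Poisson counts only, which hold no added variation between cells, so their fit to such variation was not tested. Loci are those of GENCODE vM21, and promoters are from RefSeq. Python 3.11.15, numpy 2.4.6, scipy 1.17.1 and pandas 2.3.3 were used.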

Additional observations from a re-analysis of the deposited data

Results flagged for a closer look

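For 3 members the ratio of small intestine to colon lay above 1 in some groups and below 1 in another, each beyond counting error. The difference between groups was not tested, since each group has 1 library per tissue. For Nr1d1 the ratio was 1.544 in Ncr1+ cells and 1.488 in Gata3+ cells, against 0.5254 in Cd3e+ cells. For Nr1d2 it was 1.26 in Gata3+ cells and 0.6793 in Cd3e+ cells. For Nfil3 it was 1.183 in Ccr6+ cells, 1.216 in Ncr1+ cells and 1.343 in Gata3+ cells, against 0.8076 in Cd3e+ cells.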

How the results depend on the processing

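No paired analysis was possible because there was 1 library per tissue. Scaling by the UMIs of the full matrices gives the same values as the main scaling, since the table holds all UMIs of its barcodes. The filter of at least 1000 UMIs and at most 10% mitochondrial UMIs left out no cell, so it too repeats the main values. Over all cells, other marker thresholds, exclusive groups and groups after thinning also keep the same 5490 and 7549 cells. Such repeats could not differ, and they are included in the counts below. Over 16 medians of the members and 208 alternative values, 204 stayed within the middle range of the list, but 11 changed sign: 4 in Ccr6+, 1 in Ncr1+, 1 in Gata3+ and 3 in Klrd1+ cells between tissues, and 1 each for Ncr1 and Klrd1 within the small intestine. The 4 outside that range were in Gata3+ over Gata3-negative cells of the small intestine with at least 2 marker UMIs (−0.55, against −0.29), Klrd1+ over Klrd1-negative cells of the small intestine with exclusive groups (0.125, against −0.60), and Klrd1+ over Klrd1-negative cells of the colon with at least 2 marker UMIs (−1.04) and after thinning (−0.94, against −0.60). Exclusive groups set cells with 1 marker only against cells with none of the 5 markers, so both sides of a ratio change. The exclusive Klrd1+ group of the small intestine held 31 cells. Of 1599 alternative values of single members 99 changed sign. Among the ratios at least 2-fold apart 3 did: Tef in Ccr6+ cells between tissues after thinning (log2 −0.0529, against 1.38), and Tef (1.07, against −1.68) and Hlf (0.300, against −2.10) in exclusive Klrd1+ cells of the small intestine, from 2 UMIs and 1 UMI. For Hlf those cells had 13.4 CPM, against 10.9 CPM in cells with none of the 5 markers. The cause was not tested. Of 28 ratios at least 2-fold apart, Hlf over all cells stayed so under all 10 alternatives (log2 −1.77 to −1.54), including those that leave its cells unchanged. Hlf in Gata3+ cells of the small intestine stayed so under 10 (1.60 to 2.07) and Usp2 in Ccr6+ cells of the small intestine under 10 (1.22 to 2.46). Per1 over all cells stayed so under 9 (0.80 to 1.09) and Hlf in Gata3+ cells between tissues under 7 (−1.23 to −0.80). Depth limits Klrd1+ cells of the small intestine most, where 7 members had under 20 UMIs.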
